A study of Danio rerio with 2 samples.

Results

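The genes described here are the creatine kinases and parvalbumins, read in RNA-seq libraries of dissected zebrafish hearts. There are 10 of them (*ckma*, *ckmb*, *ckba*, *ckbb*, *ckmt1*, *ckmt2a*, *pvalb1*, *pvalb2*, *pvalb3* and *pvalb4*) among the 33396 genes of the expression table, and they were chosen by name. The data were 1 RNA-seq library of hearts homozygous for the *smyd4* frameshift allele L544Efs*1 and 1 library of wild-type control hearts, both taken at 72 hpf and labelled with the Tu strain. According to the methods, each library pooled the hearts of many embryos, the mutants were maternal and zygotic, and both groups carried a green fluorescent reporter in cardiomyocytes that guided the dissection. SMYD4 is a lysine methyltransferase of the SET and MYND domain family, and the comparison asks which genes differ in heart libraries when it is mutated.

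Creatine kinases move a phosphate group between ATP and creatine, so that muscle and brain can keep a store of phosphocreatine for sudden demand. The muscle-type and brain-type enzymes work in the cytosol, and the mitochondrial enzymes charge creatine where ATP is made. Parvalbumins are small EF-hand proteins that bind calcium in the cytosol. In fish they are abundant in fast skeletal muscle, where they take up calcium after each contraction, and some are found in neurons and in the inner ear.

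Identifiers were assigned by symbol. *ckma*, *ckmb* and *pvalb1* to *pvalb4* each had 1 identifier, and the single gene listed as CKMT1B was taken as *ckmt1*. *ckba* and *ckbb* share the symbol CKB, so both are members but which is which was not resolved, and they are given as CKB ENSDARG00000043257 and CKB ENSDARG00000069752. The symbol CKMT2 belongs to ENSDARG00000039929 and ENSDARG00000069615, of which 1 is *ckmt2a*, and values are given for both. The 10 members therefore correspond to 11 identifiers, of which 10 reached 1 FPKM in either library. FPKM are reads divided by gene length and library total, so levels can be compared between genes.

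With 1 library per group, the spread between replicates is unknown, and the genotypes could not be tested against each other. The ratios of the FPKM values gave the library totals up to a common multiple. The smallest multiple whose totals were not below the summed reads, 2, was kept. It gave 17960132 reads for the library labelled mutant and 18840114 for the control library, from which the reads behind each gene were worked out. With a multiple of 4 the totals were also not below the summed reads, so the recovered reads rest on this choice. The intervals below are exact 95% intervals on these reads and cover counting error only. The targeted gene, *smyd4* (ENSDARG00000060983), was at 2.42 FPKM (106 reads) in the library labelled mutant and at 2.42 FPKM (111 reads) in the control library, a ratio of 1.00 with an interval of 0.760 to 1.32. With the libraries scaled by TMM, which assumes that most genes do not differ, the ratio was 0.700 (0.531 to 0.922). Since the transcript was still present and was not lower in the values as deposited, the mutant is named by its label throughout, and each direction rests on that label.

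Creatine kinase and parvalbumin transcripts were less abundant in the library labelled mutant. The 7 creatine kinase identifiers summed to 2706 FPKM in the library labelled mutant and 7866 FPKM in the control library. The 4 parvalbumin members summed to 431.3 and 1836 FPKM in the same order, 4.26 times less in the library labelled mutant. A gene was counted as lower or higher when its log2(FPKM + 1) value in the library labelled mutant, less that in the control library, lay below -1 or above 1, a scale that understates the change of low genes. By this rule 6 members were lower and 0 were higher, and the median difference of the 10 tested identifiers was -1.38. Over all 17800 tested genes, 11.6% were lower and 33.3% were higher, and the median difference was 0.49. In bulk tissue, fewer cells of a type and less RNA per cell cannot be told apart.

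**Figure D1:**
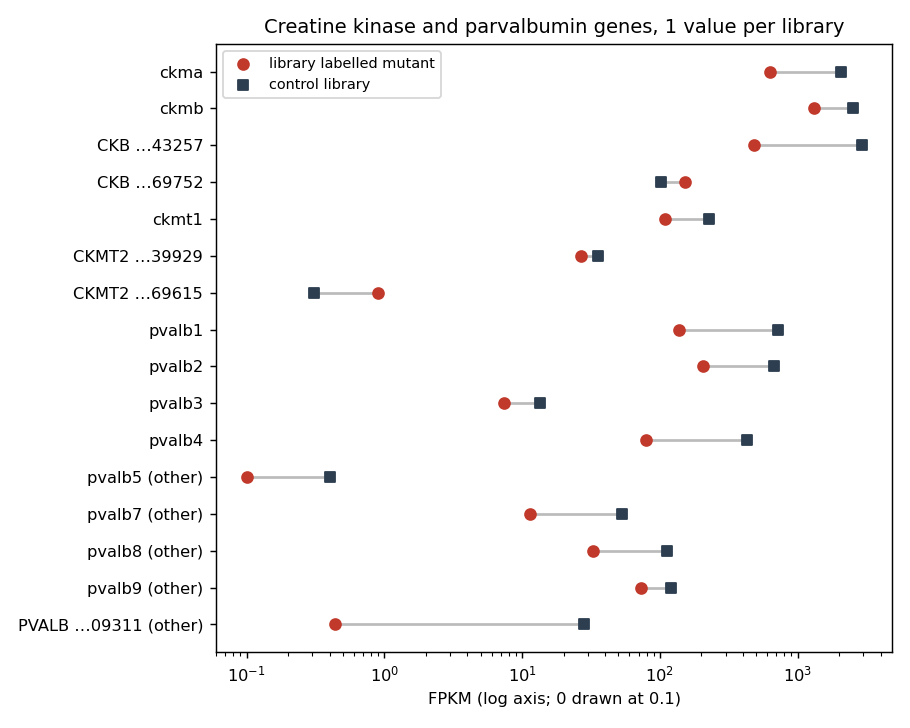
FPKM (log axis) of each creatine kinase and parvalbumin gene in the library labelled mutant (circles) and the control library (squares), 1 value per library, with the other parvalbumin genes of the table at the bottom and a value of 0 drawn at 0.1. The circle lies left of the square for every gene shown except CKB ENSDARG00000069752 (152.5 and 102.1 FPKM) and CKMT2 ENSDARG00000069615 (0.899 and 0.306 FPKM).

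Of the muscle-type creatine kinases, which buffer ATP in contracting muscle, *ckma* (ENSDARG00000035327) was the more unequal. It was at 627.9 FPKM in the library labelled mutant and 2075 FPKM in the control library, a ratio of 0.303 (interval 0.295 to 0.310) and a log2 difference of -1.72. *ckmb* (ENSDARG00000040565) was at 1309 FPKM in the library labelled mutant and 2507 FPKM in the control library. Its ratio was 0.522 (0.515 to 0.529), and its difference of -0.94 lay just short of the threshold. The 2 genes were close in level in the control library, where *ckma* was at 0.828 times the level of *ckmb*, and further apart in the library labelled mutant, where it was at 0.480 times that level. Such a ratio within a library does not depend on how the libraries are scaled. It changed by a factor of 0.580 (0.564 to 0.596).

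The brain-type genes differed in opposite directions in the values as deposited, and their levels lay closer together in the library labelled mutant. CKB ENSDARG00000043257 was the most abundant of all creatine kinases in the control library and had the lowest difference among the members. It was at 480.7 FPKM (7330 reads) in the library labelled mutant and 2918 FPKM (46679 reads) in the control library, a ratio of 0.165 (0.161 to 0.169) and a log2 difference of -2.60. Only 0.815% of the tested genes had a lower difference. CKB ENSDARG00000069752 was at 152.5 FPKM (1800 reads) in the library labelled mutant and 102.1 FPKM (1264 reads) in the control library. Its log2 difference of 0.57 did not reach the threshold and was close to the median of all genes. ENSDARG00000043257 was at 3.15 times the level of ENSDARG00000069752 in the library labelled mutant and at 28.6 times its level in the control library, so that their ratio changed by a factor of 0.110 (0.102 to 0.119). Reads of such close copies could have been divided between them, as the counting rule is not given in the sources used here.

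The mitochondrial enzymes together were less abundant than the cytosolic ones. *ckmt1* (ENSDARG00000016598), of the ubiquitous mitochondrial type, was at 108.6 FPKM in the library labelled mutant and 226.7 FPKM in the control library. Its ratio was 0.479 (0.458 to 0.501), and its difference of -1.05 lay just past the threshold. CKMT2, the sarcomeric mitochondrial type of heart and muscle, was at 26.8 FPKM in the library labelled mutant and 35.5 FPKM in the control library for ENSDARG00000039929 (difference -0.40), which was not past the threshold. ENSDARG00000069615 had 14 reads in the library labelled mutant and 5 in the control library and was not tested. The cytosolic creatine kinases together were at 18.9 times the level of the mitochondrial ones in the library labelled mutant and at 29.0 times in the control library.

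The order of the creatine kinases therefore differed between the libraries. In the library labelled mutant it was *ckmb*, *ckma*, CKB ENSDARG00000043257, CKB ENSDARG00000069752, *ckmt1* and CKMT2 ENSDARG00000039929. In the control library CKB ENSDARG00000043257 came first, followed by *ckmb*, *ckma*, *ckmt1*, CKB ENSDARG00000069752 and CKMT2 ENSDARG00000039929. The share of *ckmb* in the summed creatine kinase FPKM was 48.4% in the library labelled mutant and 31.9% in the control library. The share of CKB ENSDARG00000043257 was 17.8% and 37.1% in the same order, and that of *ckma* 23.2% and 26.4%. Muscle-type over brain-type FPKM was 3.06 in the library labelled mutant and 1.52 in the control library.

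**Figure D2:**
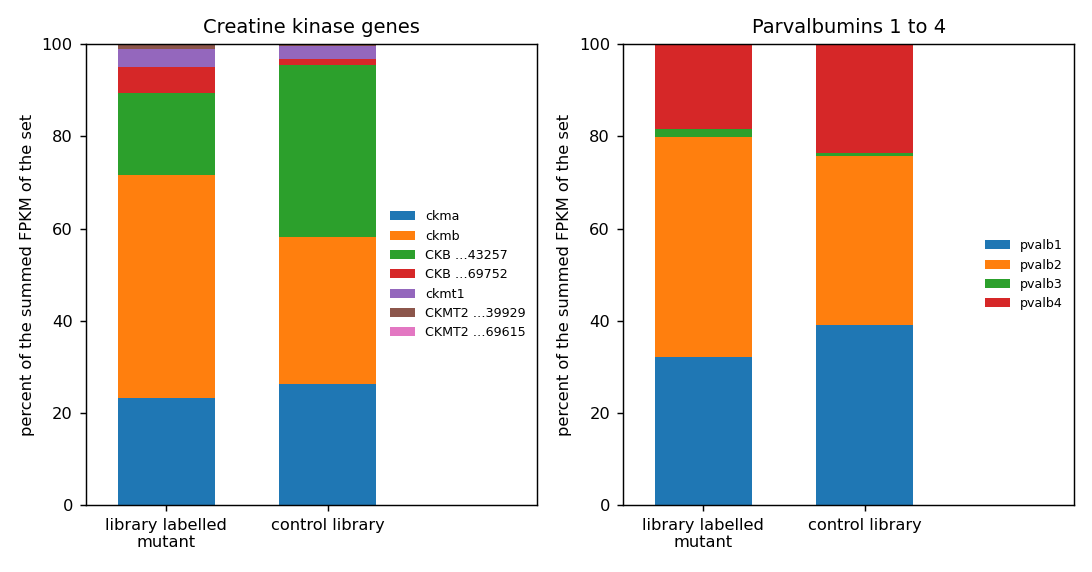
Share of each gene in the summed FPKM of the 7 creatine kinase identifiers (left) and of parvalbumins 1 to 4 (right), in percent, for the library labelled mutant and the control library. The band of CKB ENSDARG00000043257 is 17.8% in the library labelled mutant and 37.1% in the control library, whereas *pvalb2* takes 47.8% and 36.7% of the parvalbumin FPKM.

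Among the parvalbumins, *pvalb1* (ENSDARG00000037789), *pvalb2* (ENSDARG00000002768) and *pvalb4* (ENSDARG00000024433) carried nearly all of the FPKM. *pvalb1* was at 138.3 FPKM (1612 reads) in the library labelled mutant and 717.0 FPKM (8767 reads) in the control library, a ratio of 0.193 (0.183 to 0.203) and a difference of -2.37. *pvalb4* was at 79.7 FPKM (930 reads) in the library labelled mutant and 431.9 FPKM (5289 reads) in the control library, a ratio of 0.184 (0.172 to 0.198) and a difference of -2.42. These 2 genes kept nearly the same proportion to each other, with *pvalb1* at 1.74 times *pvalb4* in the library labelled mutant and 1.66 times in the control library. The change by a factor of 1.05 had an interval of 0.957 to 1.14.

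*pvalb2* was less unequal. It was at 206.0 FPKM (2882 reads) in the library labelled mutant and 674.1 FPKM (9893 reads) in the control library, a ratio of 0.306 (0.293 to 0.319) and a difference of -1.71. The ratio of *pvalb1* to *pvalb2* was 0.671 in the library labelled mutant and 1.06 in the control library, so that their order was turned round. *pvalb3* (ENSDARG00000022817) was at a low level of 7.39 FPKM (32 reads) in the library labelled mutant and 13.4 FPKM (61 reads) in the control library. Its difference of -0.78 was not past the threshold, and the interval of its ratio of 0.550 was wide, from 0.347 to 0.858.

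The table held 5 further parvalbumin genes. *pvalb7* was at 11.4 FPKM in the library labelled mutant and 53.1 FPKM in the control library (difference -2.13), and *pvalb8* was at 32.7 and 112.6 FPKM in the same order (-1.75). RefSeq lists *pvalb8* and *pvalb9* also as the oncomodulin genes *ocma* and *ocmb*. *pvalb9* was at 72.3 FPKM in the library labelled mutant and 119.6 FPKM in the control library (-0.72, not past the threshold). The gene listed as PVALB (ENSDARG00000009311) had 8 reads (0.435 FPKM) in the library labelled mutant and 547 reads (28.4 FPKM) in the control library, a ratio of 0.0153 with an interval of 0.00659 to 0.0304. Its difference of -4.35 was the lowest of all genes of both families and ranked 14 from the lowest among all tested genes. *pvalb5* had 0 reads in the library labelled mutant and 6 in the control library and was not tested.

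In the RefSeq annotation of the GRCz12tu assembly, *pvalb8*, *pvalb4*, *pvalb1* and *pvalb5* follow each other with no other protein-coding gene between them, and so do *pvalb9*, *pvalb3* and *pvalb2*. In the first row of neighbours all 3 tested genes were past the threshold, with differences of -1.75 for *pvalb8*, -2.42 for *pvalb4* and -2.37 for *pvalb1*. In the second row the difference was -0.72 for *pvalb9*, -0.78 for *pvalb3* and -1.71 for *pvalb2*, and 1 of these 3 genes was past the threshold. The creatine kinase genes have no such neighbours.

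Proportions were compared for all 45 pairs of the 10 tested identifiers. In 22 pairs the ratio within a library changed by more than 2 times between the libraries. The pairs share genes, and the share among pairs of all tested genes was not worked out. As single genes, 11.6% of all tested genes were lower and 33.3% were higher, but these shares do not give a share of pairs. Whether the count of 22 is particular to the members was therefore not tested. In 5 pairs the interval of the change held 1, and 3 of these involved *pvalb3* with its few recovered reads, which may be a fraction of the true ones. The others were *pvalb1* with *pvalb4*, and *ckma* with *pvalb2*, where *ckma* was at 3.05 times *pvalb2* in the library labelled mutant and 3.08 times in the control library (change 0.990, interval 0.944 to 1.04). The largest change was that of CKB ENSDARG00000043257 against CKB ENSDARG00000069752. The intervals do not include differences between replicate pools of hearts.

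The differences moved with the scaling of the libraries. TMM scaling brought the median of all tested genes to 0.04, and under it 8 members were lower, with *ckmb* (-1.45) and *pvalb3* (-1.25) now past the threshold, against 19.3% of all tested genes. CKB ENSDARG00000069752 was then at 0.06. With a threshold of 2, 3 members were lower (CKB ENSDARG00000043257, *pvalb1* and *pvalb4*), against 2.31% of all tested genes. When the sums of FPKM were made equal, a choice added after the values were seen, 5 members were lower and *ckmt1* (-0.84) was no longer past the threshold, against 9.02% of all tested genes.

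**Figure D3:**
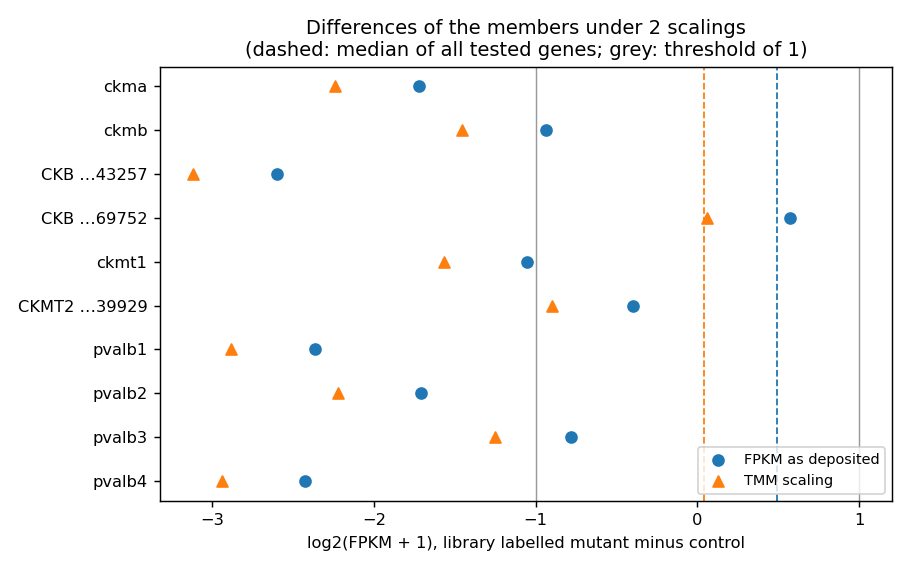
Difference in log2(FPKM + 1), library labelled mutant minus control, of the 10 tested identifiers with the values as deposited (circles) and after TMM scaling (triangles). Dashed lines mark the medians of all tested genes, 0.49 and 0.04, and grey lines the threshold. All points but those of CKB ENSDARG00000069752 lie below 0.

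Abundant genes as a whole were past the threshold more often. Of the 1502 genes that reached 100 FPKM in 1 of the libraries or both, 401 (26.7%) were lower and 576 were higher, and their median was 0.21. Genes with a short recovered length were lower more often, at 20.4% of those of up to 1000 bases, 9.44% of those of 1000 to 2000 bases and 6.85% of longer ones. The recovered lengths of the parvalbumin members ran from 241 to 779 bases. Those of *ckma* (792 bases) and both CKB genes are shorter than the coding sequence of a creatine kinase. So are those of CKMT2 ENSDARG00000039929 (1123 bases) and ENSDARG00000069615 (867 bases), and that of *pvalb3* (241 bases) is shorter than that of a parvalbumin. The true reads and lengths of these genes may therefore be multiples of the recovered ones. The part of level and length in the differences of the members was not tested.

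Genes that act with creatine kinase were examined next. For all list counts below, the shares over all tested genes were 33.3% higher and 11.6% lower. With TMM scaling, 3773 of the 17800 tested genes were higher and 3442 were lower. Genes of creatine supply and of other phosphate transfer between nucleotides were listed together with CKMT2 and the AMP deaminases AMPD1 and AMPD3. Of the 18 tested genes of this list, 4 were past the threshold upwards and 7 downwards, with a median of -0.59. TMM scaling gave 2 higher and 8 lower genes. GATM, the enzyme of the first step of creatine synthesis, was at 308.6 FPKM in the library labelled mutant and 1917 FPKM in the control library (-2.63). GAMT, which completes the synthesis, was at 149.6 and 149.8 FPKM in the same order, and SLC6A8, the creatine transporter, at 1.39 and 2.70 FPKM (-0.63). NME1, a nucleoside diphosphate kinase, was at 421.6 FPKM in the library labelled mutant and 1490 FPKM in the control library (-1.82), and AK1, the cytosolic adenylate kinase, at 164.5 and 827.6 FPKM (-2.32). Other genes of the same list went the other way. The 4 higher genes were NME3 (22.7 and 6.04 FPKM in the same order, 1.75), NME6 (7.84 and 1.66, 1.73), AMPD3 ENSDARG00000032469 (92.9 and 36.5, 1.32) and AK3 (27.2 and 11.2, 1.21). Of 7 carriers and pores of the mitochondrial membranes that work with the mitochondrial enzymes, 1 was higher and 4 were lower (median -1.15). The ADP/ATP carrier SLC25A5 was at 5839 FPKM in the library labelled mutant and 13037 FPKM in the control library (-1.16), and the phosphate carrier SLC25A3 at 587.9 and 2200 FPKM (-1.90). VDAC3 was at 526.1 and 212.3 FPKM (1.31) and was the gene that was higher, a call that was lost with TMM scaling (0.79).

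The calcium cycle of fast muscle, in which parvalbumin takes part, was examined as well. The list held 15 tested genes, 2 of them higher and 3 lower, with a median of -0.27. It also took in the calcium buffers CALB1 (-1.03), CALB2 and *calb2b* (-0.97). The 3 lower genes were CALB1, CALB2 and JPH1 (ENSDARG00000038826, -1.09). TMM scaling gave 1 higher and 6 lower genes, CALB1, CALB2 and *calb2b* among the lower ones, and a median of -0.78. The calcium pump *atp2a1*, which returns calcium to the sarcoplasmic reticulum, was at 139.7 FPKM in the library labelled mutant and 168.6 FPKM in the control library (-0.27). CALB2, the calcium buffer calretinin of neurons, was at 8.16 FPKM in the library labelled mutant and 56.3 FPKM in the control library (-2.65), and CACNG1, a subunit of the calcium channel of skeletal muscle, at 13.2 and 1.89 FPKM (2.29).

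Both families are also expressed outside the heart, so the levels of other tissues were set beside them. Of 28 fast skeletal muscle names listed, 7 found no match, among them *mylpfa* and *mylpfb*, and the symbol TNNI2 brought in 6 identifiers. The 26 matched markers were all above 0 in both libraries and summed to 5183 FPKM in the library labelled mutant and 10958 FPKM in the control library. Of these, 4 were higher and 5 were lower, with a median of -0.18 and a range from -2.24 to 2.73. TMM scaling gave 2 higher and 10 lower markers and a median of -0.60. An MYL1 gene, the myosin light chain of fast fibres (ENSDARG00000017441), was at 758.7 FPKM in the library labelled mutant and 3593 FPKM in the control library, and *tpma*, a skeletal tropomyosin, at 849.2 and 2963 FPKM. A gene of the fast troponin I symbol TNNI2 (ENSDARG00000029069) was at 104.4 and 453.2 FPKM, and a fast troponin T gene, TNNT3 (ENSDARG00000030270), at 135.2 and 56.4 FPKM. The muscle-type creatine kinases were at 37.4% of the summed fast muscle markers in the library labelled mutant and 41.8% in the control library. The parvalbumin members were at 8.32% and 16.8% of that sum in the same order, and the brain-type creatine kinases at 12.2% and 27.6%. The fast muscle sum leaned on MYL1 ENSDARG00000017441 and *tpma*, both lower. They were at 758.7 and 849.2 of 5183 FPKM in the library labelled mutant. In the control library they were at 3593 and 2963 of 10958 FPKM, so these shares rest largely on 2 genes. Set against the summed cardiomyocyte markers, the muscle-type creatine kinases were at 22.7% in the library labelled mutant and 65.3% in the control library, the brain-type ones at 7.42% and 43.1%, and the parvalbumin members at 5.05% and 26.2%. The cardiomyocyte sum leaned on *actc1a*, the 1 lower marker of that list. It made up 1685 of 8536 FPKM in the library labelled mutant and 4275 of 7014 FPKM in the control library. The cardiomyocyte names *vmhc* and *myh7l* found no match.

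**Figure D4:**
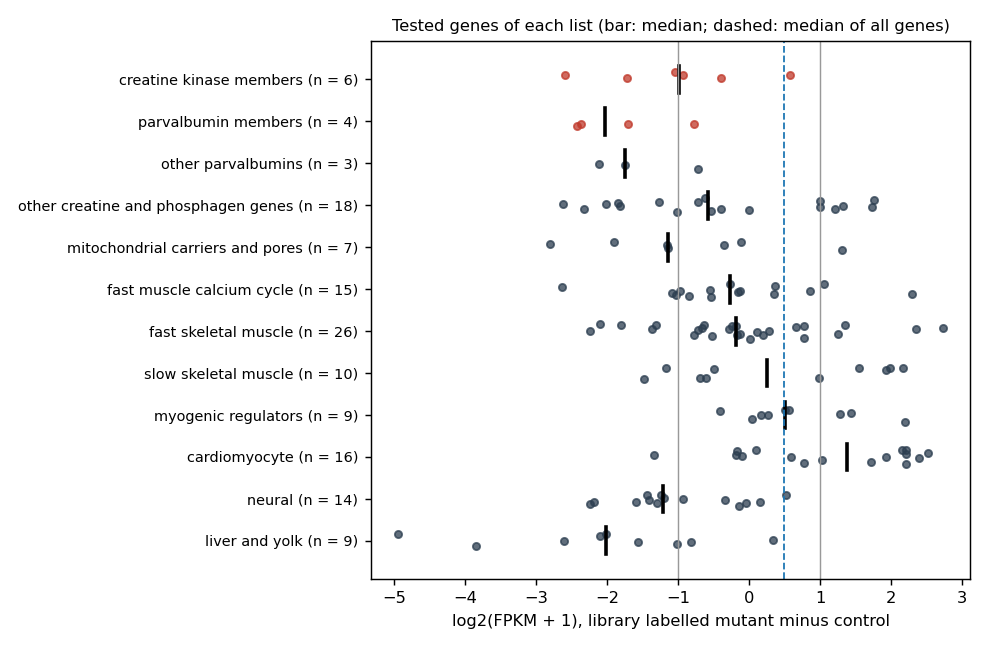
Difference in log2(FPKM + 1), library labelled mutant minus control, of the tested members and of the tested genes of most gene and marker lists, 1 point per gene. The retina and lens, hair cell, ionocyte, erythrocyte and epidermis lists and the gene listed as PVALB are not drawn. Black bars mark the medians, which for the parvalbumin members was -2.04, the dashed line the median of all tested genes (0.49) and grey lines the threshold.

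Cardiomyocyte markers went the other way, as 9 of 16 were higher and 1 was lower (median 1.37). *myl7* (MYL7), which marks cardiomyocytes, was at 2977 FPKM in the library labelled mutant and 642.0 FPKM in the control library, and *actc1a* at 1685 and 4275 FPKM. Of 14 neural markers 8 were lower and 0 higher (median -1.22), among them *gap43* at 17.1 FPKM in the library labelled mutant and 84.7 FPKM in the control library and ELAVL4 at 27.4 and 66.2 FPKM. Of 9 liver and yolk markers 7 were lower and 0 higher (-2.02). Among slow muscle markers 4 of 10 were higher and 2 lower (0.24), and among myogenic regulators 3 of 9 were higher and 0 lower (0.51). Over all tested genes 33.3% were higher, close to the share of the myogenic regulators, and the median was 0.49. TNNI1 (ENSDARG00000052708, 1.93) was counted as higher in both the slow muscle and the cardiomyocyte list. The remaining lists gave 4 higher and 0 lower of 7 for erythrocytes, 3 and 2 of 9 for epidermis, 2 and 3 of 10 for ionocytes, 3 and 0 of 3 for retina and lens, and 0 of 2 for hair cells. The 3 retina and lens genes reached 1 FPKM only in the library labelled mutant, so the filter itself favoured that direction. With at least 1 FPKM required in both libraries, 0 of that list were higher. The same filter left 3 higher slow muscle markers, 2 higher myogenic regulators and 4 lower fast muscle markers. It also left 6 lower genes in the list of creatine supply and phosphate transfer and 3 lower mitochondrial carriers and pores. The other counts of higher and lower genes in the lists stayed the same. With TMM scaling the erythrocyte list had 2 higher and 2 lower genes, and the epidermis list 0 higher and 3 lower ones. The epidermis markers summed to 26618 FPKM in the library labelled mutant and 21221 FPKM in the control library. The cardiomyocyte markers summed to 8536 and 7014 FPKM in the same order. Markers of epidermis, skeletal muscle, neural tissue and liver were thus present in both heart libraries. The part of these tissues in the differences of the creatine kinases and parvalbumins was not tested.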

How the data were processed

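RNA-seq of zebrafish hearts gave 1 library per genotype. The authors deposited FPKM values, with no further scaling between libraries. The unit was recognized from the values. The submitters' processing notes name TopHat2 2.0.9 and Bowtie2 2.0.6. The genome build, annotation and counting rule are not given in the sources used here. The study's DESeq2 test on 2 groups was not repeated, as 1 library per group leaves no spread. No column of other samples was present.

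Differences are log2(FPKM + 1), library labelled mutant minus control, for genes that reached 1 FPKM in 1 of the libraries or both. Symbols matched 26433 identifiers. Whole reads were worked out from ratios of FPKM values, and the smallest fitting reads were kept (90.9% of the mutant and 91.5% of the control total). Ratio intervals are exact (Clopper-Pearson, or conditional for pairs). The procedures were tested on simulated data drawn from the recovered reads, lengths and totals. Such data cannot show that the multiple or the lengths kept here are the true ones. The members and lists were chosen with earlier results of these data known. Named genes were all members, all other family genes, *smyd4* and, per main list, the most abundant genes past the threshold (4 for fast muscle, 2 for the others). GAMT, SLC6A8, AK1, VDAC3 and *atp2a1* were added for their roles after the values were seen. NME3, NME6, AK3, AMPD3, CALB1, *calb2b*, JPH1 and TNNI1 were also added after the values were seen, to show what their lists held. Alternatives were TMM (30% and 5% trims), median-of-ratios, upper-quartile and equal-sum scaling, a pseudocount of 0.1, other filters and a threshold of 2. Python 3.11.15, numpy 2.4.6, pandas 2.3.3, scipy 1.17.1 and matplotlib 3.10.9 were used.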

Additional observations from a re-analysis of the deposited data

How the results depend on the processing

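The number of lower members was 6 and became 3 with a threshold of 2, a stricter rule by construction. It lay between 5 and 9 under the other alternatives, and 0 members were higher under any of them. Of 50 single differences recomputed with other scalings or a pseudocount of 0.1, 41 stayed on the same side of the threshold in the same direction. In 7 the member passed the threshold (*ckmb* and *pvalb3* under each of the 3 scalings based on reads, CKMT2 ENSDARG00000039929 at -1.02 under upper-quartile scaling), and in 1 it no longer did (*ckmt1*). CKB ENSDARG00000069752 turned to -0.07 under upper-quartile scaling. With all parvalbumins of the table summed, *pvalb2* held 37.6% in the library labelled mutant and 31.3% in the control library. No paired analysis was possible because each group has 1 library, and for the same reason no library could be left out. Few recovered reads limit *pvalb3* and CKMT2 ENSDARG00000069615 most.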
